A study of Gallus gallus with 3 samples.

Results

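The skin of the growing digit tip was represented by 1 sub-population of the HH31 library. Its members were the 367 cells assigned to fine sub-cluster 5 in the deposited HH31 table, out of 4823 cells in all (7.61%, exact binomial 95% interval 6.88 to 8.39%). They were described against the other 4456 cells of the same library. The HH31 tissue was the tip of digit 4 of the embryonic chicken hindlimb, captured with the 10x v2 droplet chemistry, where every captured transcript bears a unique molecular identifier (UMI) and its amplified copies are counted once. The HH25 library (whole autopod, the distal limb segment, 10x v2) and the HH29 library (digits 3 and 4, Drop-Seq, 3 technical replicates) were used for comparison with earlier limb ectoderm. None of the embryos was treated, and neither strain nor number of embryos is given in the sources used here.

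Embryonic epidermis is an epithelium of ectodermal origin. Its basal cells are held together by desmosomes and cadherins, are filled with keratin filaments, and are anchored to a basement membrane by hemidesmosomes. In the limb bud the ectoderm also carries signalling roles: the apical ectodermal ridge along the distal rim secretes fibroblast growth factors that keep the underlying mesenchyme growing, and dorsal and ventral ectoderm express different regulators.

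The skin cells held 1106402 UMIs and the other cells 12267344. A skin cell had a median of 2552 UMIs and 765 detected genes, whereas the other cells had medians of 2472.5 UMIs and 815.5 genes. After each cell had been thinned to 1000 UMIs, the median number of genes was 401 in the skin and 437 in the other cells. The broad clustering placed 365 of the 367 skin cells in 1 cluster that held no other cell. The cell barcodes of the HH25 and HH31 tables overlapped in 48 cases, of which 1 was a skin cell.

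Levels are given as summed UMIs per 1000000 UMIs of the population (CPM), and differences as the log2 ratio of CPM in the skin over CPM in all other HH31 cells. There was 1 library per stage, so no p-value was computed, and the 95% intervals cover counting error only. Because the sub-cluster had been defined on these same counts, its comparison with the remaining cells is a description and not a test. A gene is called higher or lower when its ratio was at least 2-fold and its interval lay on 1 side of 0. Of 7285 genes with at least 50 UMIs in the HH31 table, 304 were higher in the skin (4.17%) and 931 were lower (12.8%). The median ratio over all these genes was -0.25. With that median set to 0, 436 genes were higher and 673 lower. Gene names could be assigned to 2849 of the 7285 genes, of which 6.74% were higher and 16.3% lower, and these shares are the background for the counts of named genes below. The names came from lists of marker and module genes of this series, so named genes tend to be the ones that vary between clusters. The minimum of 50 UMIs counted skin and other cells together. Genes nearly confined to the skin therefore passed it only through their skin UMIs, which raises the counts of higher genes per list. The gene lists below also contain the 5 markers of the sub-cluster.

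The markers KRT17 and KRT19 (keratins of embryonic and stressed epithelia), COL17A1 (a transmembrane collagen of hemidesmosomes), ANXA2 (a calcium-dependent membrane-binding protein) and CLDN1 (a tight junction claudin) were all high in the sub-cluster. KRT17 (ENSGALG00000003690) stood at 370 CPM in the skin (334.7 to 407) and at 2.77 CPM elsewhere (log2 ratio 7.06, 6.55 to 7.61). KRT19 (ENSGALG00000019719) reached 492 CPM in the skin against 2.61 CPM in the other cells, and COL17A1 reached 623 against 3.51 CPM. CLDN1 was measured at 349 CPM in the skin and 1.47 CPM elsewhere. ANXA2 was the least restricted of the markers, with 839 CPM in the skin and 23.1 CPM in the other cells (log2 ratio 5.18, 4.99 to 5.38). In no other sub-cluster did any of these genes exceed 62.5 CPM, the value of ANXA2 in sub-cluster 4.

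**Figure D1:**
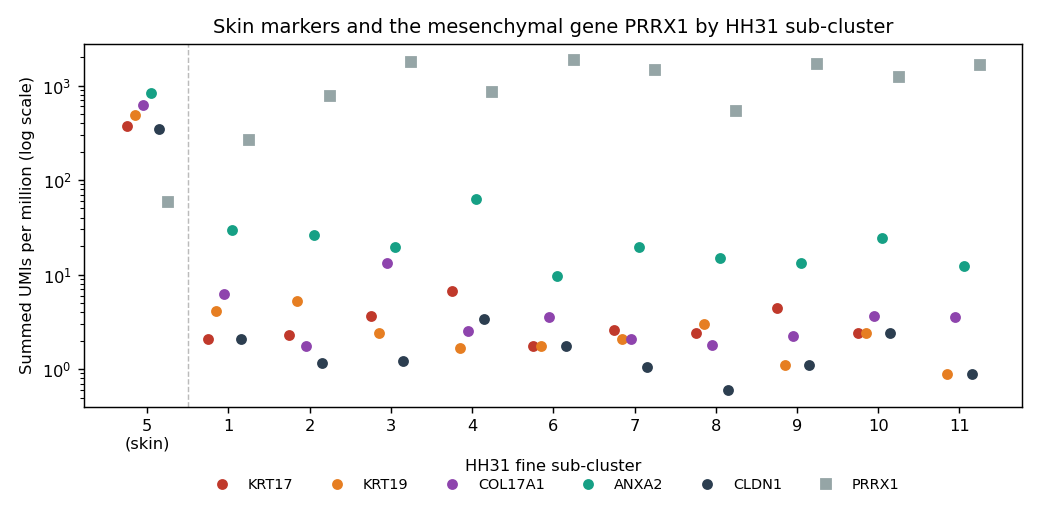
Summed UMIs per 1000000 (vertical axis, log scale) of the 5 skin markers (circles) and of the mesenchymal gene PRRX1 (squares) in the skin and in the 10 other HH31 sub-clusters (horizontal axis). All 5 markers lie at 349 CPM or more in the skin and at 62.5 CPM or less elsewhere, while PRRX1 is lowest in the skin. KRT17 is at 0 in sub-cluster 11 and is not drawn there.

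The markers separated the skin cells from the rest cell by cell. UMIs of at least 2 of the 5 markers were found in 336 skin cells (91.6%) and in 11 of the other cells (0.247%). All 5 markers were detected in 58 skin cells and in none of the others. No marker was detected in 5 skin cells and a single one in 26. These 31 cells had a median of 1687 UMIs, below the 2681.5 UMIs of the skin cells with more markers. At an equal 1000 UMIs per cell, 2 or more markers were found in 64.3% of skin cells and 0.0898% of other cells. Sub-cluster 6 (379 cells), which is also named skin in the marker lists of this series, held 1.77 CPM of KRT17, 1.77 CPM of KRT19 and 9.75 CPM of ANXA2 but 1840 CPM of PRRX1, a transcription factor of limb mesenchyme. Its level of ANXA2 was the lowest of all sub-clusters, and it was kept among the other cells.

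Most keratin and cell junction genes were higher in the skin. Of 6 intermediate filament genes measured, 5 were higher in the skin and 1, the mesenchymal filament gene VIM, was lower (log2 ratio -1.28, -1.42 to -1.15). The median ratio of the group was 6.04. Besides KRT17 and KRT19, the higher members were 2 further epithelial keratins listed as otokeratin (141 against 1.14 CPM) and Keratin (114 against 3.26 CPM), and KRT18, a keratin of simple epithelia (75.9 against 11.2 CPM). A gene with a keratin-like rod, KRT222, had too few UMIs for a call, 13 in the skin and 10 elsewhere.

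Among desmosome and adherens junction genes, 4 of 6 were higher in the skin and none was lower. DSP, the plakin that ties keratins to desmosomes, was found at 184 CPM in the skin against 2.53 CPM in the other cells. CDH3, the P-cadherin of basal epidermis, was found at 230 against 11.1 CPM, and the armadillo protein gene PKP4 at 244 against 30.2 CPM. The catenins CTNNB1 and CTNNA1, which all adhesive cells use, had ratios of 0.16 (0.01 to 0.31) and 0.05 (-0.19 to 0.29). Of the tight junction and epithelial surface genes, 5 of 6 were higher, among them CLDN1, CLDN3 (86.8 against 0.571 CPM), the splicing regulator ESRP2 (95.8 against 0.978 CPM) and the adhesion molecule EPCAM (278 against 8.80 CPM). The scaffold gene TJP1 was not, with a ratio of -0.56 (-1.36 to 0.14).

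The anchoring machinery was mixed. Of 10 genes of the hemidesmosome and basement membrane, 5 were higher, 2 were lower and 3 were neither. The hemidesmosome integrin gene ITGA6 (-0.23, -1.72 to 0.96) and the tetraspanin gene CD151 (0.05, -0.55 to 0.60) did not reach the limit. DST, a plakin of hemidesmosomes, had 423 CPM in the skin and 24.8 CPM in the other cells. FERMT1, an integrin activator of keratinocytes, had 80.4 and 11.7 CPM. The laminin chain LAMB4 was close to exclusive, with 70 UMIs in the skin and 4 UMIs in the more than 10 times larger remainder (ratio 7.60, 6.18 to 9.52), while the widespread chain LAMB1 did not separate (0.26, -0.05 to 0.55). The basement membrane collagen genes divided as well. COL4A1 was lower in the skin, at 1.81 against 8.97 CPM, and COL4A2 had no UMI in the skin and 47 elsewhere. COL4A5 and COL4A6, the chains of epithelial basement membranes, were too rare for a call but had 24 and 20 UMIs in the skin against 13 and 10 UMIs in all other cells. The call for COL4A1 rests on 2 UMIs in the skin. It was not reached with cells thinned to 1000 UMIs (at most -0.02). Nor was it reached among cells with at least 3 UMIs of the W-linked gene Wpkci-8 (at most -0.50). No skin UMI was left in either case, so both values are bounds with 3 UMIs for the skin, not measured ratios.

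Several transcription factors were nearly confined to the skin. SP8, which is required for the apical ridge in mouse and chick, had the largest ratio of any named gene with at least 100 UMIs: 114 UMIs in the skin against 1 UMI elsewhere (log2 ratio 10.30, 7.80 to 15.62). EMX2, a homeobox gene, reached 122 against 1.06 CPM, and EN1, the ventral ectoderm regulator, 81.3 against 1.79 CPM. TP63, the master gene of stratified epithelia, was sparsely captured, with 12 UMIs in the skin and 3 elsewhere. Of 10 epidermal transcription factors measured, 5 were higher, and 2 that the mesenchyme also uses were lower: MSX2 (64.2 against 226 CPM) and TFAP2B (41.6 against 173 CPM). DLX5 did not separate the populations (-0.02, -0.21 to 0.16).

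The Hox genes that pattern the autopod were low in the skin. Of 10 genes for limb position, 8 were lower, with a median ratio of -3.87. HOXD12 had 34.3 CPM in the skin and 631 CPM in the other cells, HOXA13 had 20.8 and 377 CPM, and HOXD13 had 19.0 and 308 CPM. Among named genes with at least 100 UMIs and any UMI in the skin, HOXD11 had the lowest ratio (-7.00, -12.30 to -4.52). It had 1 UMI in the skin against 1415 elsewhere. PITX1, the hindlimb selector of the mesenchyme, had 4.52 against 93.2 CPM. Of the 3 HOXC genes, HOXC9 and HOXC10 went the other way. HOXC9 was found at 128 CPM in the skin against 5.46 CPM in the other cells (log2 ratio 4.55), with no other sub-cluster above 9.44 CPM, and HOXC10 at 107 against 32.4 CPM (1.72, 1.41 to 2.02). HOXC11 was lower (-1.24, -2.26 to -0.38), on 11 UMIs in the skin, but stood at -0.99 with the median ratio of all genes set to 0 and at -0.26 among cells with at least 3 UMIs of Wpkci-8.

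**Figure D2:**
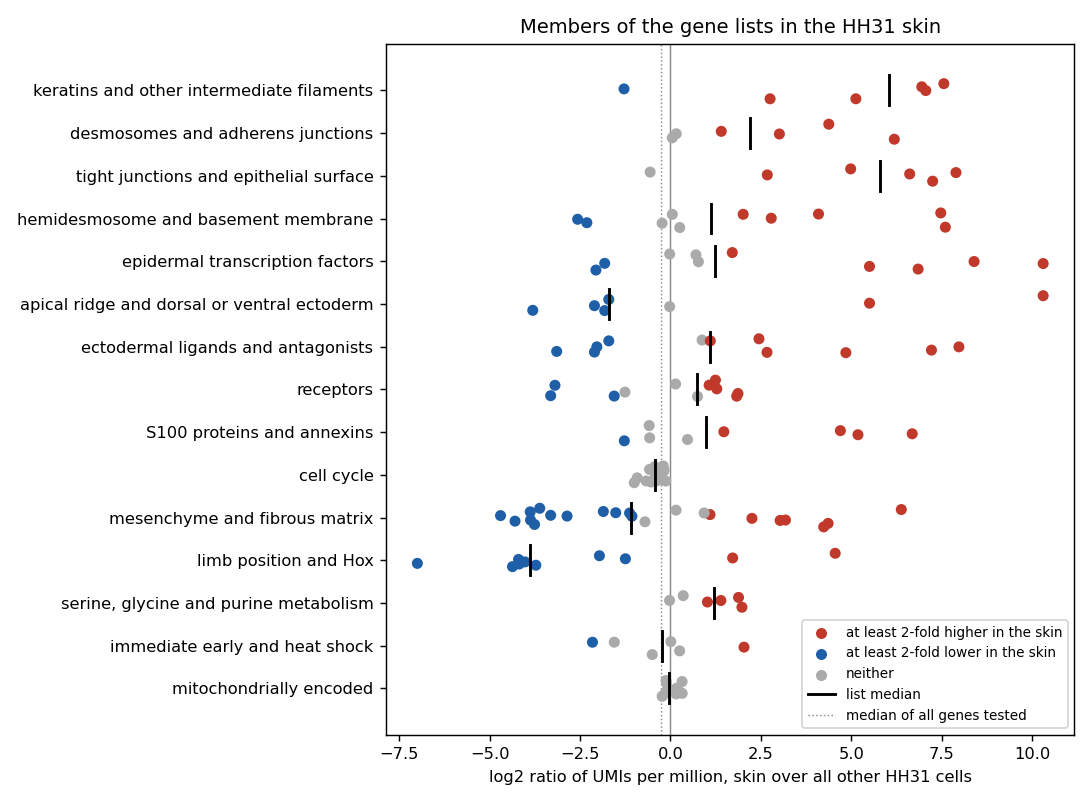
Log2 ratio of UMIs per 1000000 in the skin over all other HH31 cells (horizontal axis) for the named members of 15 gene lists (rows), with genes at least 2-fold higher in red, at least 2-fold lower in blue and the remainder in grey. Black bars are list medians, which run between -3.87 for limb position and Hox genes and 6.04 for keratins, and the dotted line is the median over all 7285 genes, -0.25.

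Ligands known from limb ectoderm were prominent. WNT6, an ectodermal Wnt, had 328 CPM in the skin and 1.30 CPM in the other cells (7.97, 7.26 to 8.80), and 56.9% of skin cells held a UMI of it against 0.359% of the others. The platelet-derived growth factor gene PDGF-A had 267 against 1.79 CPM, while its receptor gene PDGFRA showed the reverse, with 1 UMI in the skin and 110 elsewhere. Thinning left no UMI of PDGFRA in the skin, which ended that call. SOSTDC1, an antagonist of BMP and Wnt signalling, had 118 against 4.08 CPM. The chemokine CXCL14 had 671 against 105 CPM and the heparin-binding factor MDK 2999 against 549.8 CPM. The canonical Wnt gene WNT3A, which induces the ridge in chick, was seen with 30 UMIs in 26 skin cells and with none elsewhere. That makes its level at least 111-fold higher in the skin, taking 3 UMIs as the limit for the other cells together.

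Other ligands belonged to the mesenchyme. WNT5A, the non-canonical Wnt of the distal limb, had 272 CPM in the skin against 1113 CPM in the other cells. BMP4 had 22.6 against 73.6 CPM and BMP2 9.94 against 42.6 CPM. Of the 11 listed ectodermal ligands and antagonists with at least 50 UMIs, 6 were higher and 4 lower. These counts include SEMA3D, higher at 1.10, and WNT11, lower at -3.14. Both fell below 2-fold among cells with no UMI of Wpkci-8, SEMA3D to 0.95 and WNT11 to a bound of -0.91. WNT3A was under the minimum and is not counted. Outside this list, the mesenchymal growth factor FGF10, which signals to the ectoderm, had 1 UMI in the skin and 406 elsewhere.

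Of 11 receptor genes, 5 were higher and 3 lower. FGFR2, whose epithelial splice form receives the FGF10 signal in mouse and chick, was found at 300.1 CPM in the skin and 84.3 CPM in the other cells (1.83, 1.65 to 2.01). FGFR1, the mesenchymal counterpart, was lower at 56.9 against 167 CPM. The epidermal growth factor receptor gene EGFR was higher (230 against 94.4 CPM), and so were the cytokine receptor gene LIFR (67.8 against 18.6 CPM) and the R-spondin receptor gene LGR4 (90.4 against 38.1 CPM). BMPR1B, a receptor of digit cartilage, had no UMI in the skin and 304 in the other cells, at least 9.14-fold lower with a limit of 3 UMIs for the skin. The splice forms of FGFR2 were not told apart by these counts per gene.

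The ridge genes FGF8 and RSPO3 were rare. Together with SP8 they summed to 145 CPM in the skin, of which SP8 gave 103 CPM, and to 0 to 5.91 CPM in the other sub-clusters. FGF8, the defining ridge factor, was detected in 11 of 367 skin cells (3.00%, 1.51 to 5.30%) and in 0.112% of the other cells. These 11 cells carried 37 UMIs, between 1 and 11 per cell. RSPO3, a secreted agonist of Wnt signalling, had 9 UMIs in the skin and 18 elsewhere. Of 7 measured genes of ridge, dorsal or ventral ectoderm, SP8 and EN1 were higher and 4 were lower (BMP2, BMP4, MSX2 and LMX1B). LMX1B, a dorsal mesenchyme regulator, had 1 UMI in the skin against 155 elsewhere, and thinning to 1000 UMIs left no UMI in the skin, which ended the call.

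A group of extracellular matrix genes was higher in the skin than in the other cells. Of 22 mesenchymal and matrix genes, 7 were higher and 12 lower. FN1, which encodes fibronectin, had 769 CPM in the skin (718 to 823) and 37.5 CPM in the other cells (4.36, 4.19 to 4.53). It was detected in 80.4% of skin cells and in 8.75% of the others. MGP, a mineralization inhibitor, had 143 against 1.71 CPM, the fibrillar collagen gene COL3A1 153 against 18.7 CPM, and the fibril-associated collagen gene COL14A1 206 against 22.7 CPM. The proteoglycan gene DCN had 311 against 65.2 CPM, with no other sub-cluster above 105 CPM. POSTN and FBLN1 were higher as well, with ratios of 4.24 (3.40 to 5.11) and 1.09 (0.90 to 1.29), although FBLN1 stood at 0.99 among cells with at least 3 UMIs of Wpkci-8. The mesenchymal regulators and other matrix genes went the other way. PRRX1 (58.7 against 1154 CPM), TWIST2 (10.8 against 132.6 CPM), the cadherin gene CDH11 (35.2 against 514 CPM), LUM (13.6 against 199 CPM) and COL6A1 (6.33 against 85.5 CPM) were all lower. COL1A2 remained under the 2-fold limit at 657 against 1070 CPM.

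Of 8 genes for calcium-binding S100 proteins and annexins, 4 were higher in the skin, 1 was lower and 3 were neither. S100A11 had 1122 CPM in the skin and 43.2 CPM in the other cells (4.70, 4.55 to 4.85). S100A14 had 92.2 against 0.897 CPM, and S100A6 879 against 316 CPM. S100A10 stayed under the limit (156 against 112.7 CPM). ANXA2 was the single annexin called higher, with ratios of -0.57 for ANXA5, -0.59 for ANXA11 and -1.27 for ANXA6. CALML3, a calmodulin-like protein of keratinocytes, was detected with 64 UMIs in 53 skin cells and with none in any other cell, at least 237-fold higher with a limit of 3 UMIs for the other cells together. It was the only periderm or cornification gene that could be named in the table.

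The metal-binding protein gene listed as MT4L was found at 893 CPM in the skin and 94.4 CPM in the other cells (3.24, 3.12 to 3.37). Another metallothionein entry, MT1 MT3, had 91.3 against 5.30 CPM. Of 6 genes listed for serine, glycine and purine metabolism, 4 were higher in the skin and none was lower. The other 2, PSAT1 and ATF4, were not called. PSAT1 had ratios of 0.55 (-0.83 to 1.69) among cells with at least 3 UMIs of Wpkci-8 and -0.66 (-1.90 to 0.36) among cells with none. Purine synthesis was represented by ATIC only. ATIC, which completes the synthesis of purine rings, was detected in 82.6% of skin cells (935 against 254 CPM), and PHGDH, the first enzyme of serine synthesis, had 242 against 61.5 CPM. ASNS, which makes asparagine, had a ratio of 1.39 (1.02 to 1.75) and GCAT of the glycine pathway 1.02 (0.77 to 1.27). The call for GCAT ended without the skin cells with PRRX1 (0.94), without those with FGF8 (0.95) and among cells with Wpkci-8 (0.92).

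The median share of UMIs from ribosomal protein genes was 49.4% in skin cells and 44.5% in the other cells. The medians of the other 10 sub-clusters ran between 35.4 and 50.4%, so that the skin was near the upper end but inside their range. None of the 72 ribosomal protein genes was called (median ratio 0.12), and neither was any of the 12 mitochondrial genes (-0.04). The median mitochondrial share was 6.46% in the skin and 6.67% in the other cells.

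Genes of proliferation did not mark the skin against all other cells pooled. None of 15 cell cycle genes reached 2-fold in either direction, and their median ratio was -0.43, below the -0.25 of all genes. Among cells with at least 3 UMIs of Wpkci-8 the median was -0.85 and 5 of the 15 were lower, where 11.7% of all 5171 genes tested were lower. The 5 were CCNB3 (-1.99), AURKA (-1.95), CDC20 (-1.35), CCNB2 (-1.18) and TOP2A (-1.11). In cells without Wpkci-8 the same 5 genes had ratios between -0.90 and -0.25. MKI67 was detected in 8.72% of skin cells and in 12.8% of the others (ratio -0.44, -0.84 to -0.05). TOP2A was detected in 21.8% of skin cells and 29.3% of the others. At 126.5 against 253 CPM, TOP2A fell only just short of the 2-fold limit. The deposited cell cycle scores were similar, with a median S score of 0.537 in both populations and a median G2M score of 0.937 in the skin and 0.95 in the other cells. The other sub-clusters had G2M medians between 0.822 and 0.998. Pooling hides differences between them in the mitotic genes CENPF and UBE2C, which are outside the list of 15. CENPF had 145 CPM in the skin and 203, 650 and 1359 CPM in sub-clusters 7, 9 and 11. In the remaining sub-clusters it had 8.48 to 28.9 CPM. UBE2C had 117 CPM in the skin, 865 and 801 CPM in sub-clusters 9 and 11, and 10.2 to 114 CPM in the remaining ones.

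The genes with the lowest ratios belonged to cartilage and mesenchyme. After HOXD11 came the cartilage collagen gene COL9A1, with 1 UMI in the skin against 1038 elsewhere, SETBP1, FGF10 and MECOM (5 against 1775 UMIs). Also among the 15 lowest were COL9A3, the activin subunit INHBA, SFMBT2, the small proteoglycan OGN, TWIST1, TMEM26, RELN (7 against 1851 UMIs), PLAC9, RUNX1T1 and SRPX. Their ratios lay between -7.00 and -4.47, and 8 of the 15 rested on a single UMI in the skin. Genes with no UMI in the skin were ranked as if they had 3 UMIs there. Some of these, such as BMPR1B, therefore did not enter the 15.

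Markers of other tissues were present in the skin at differing levels. The 5 mesenchymal markers summed to 245 CPM in the skin, against 373 to 2657 CPM in the other sub-clusters, and all 5 had at least 1 UMI. The 6 cartilage markers summed to 273 CPM, within the range of 95.4 to 4559 CPM elsewhere, of which 221 CPM came from COL2A1. This cartilage collagen gene stood at 35.5 to 61.6 CPM in 8 other sub-clusters, with sub-clusters 2 and 1 at 231 and 2133 CPM, so the skin lay above most of them. ACAN and MATN1, which define mature cartilage, had no UMI in the skin. The 4 connective tissue markers summed to 1036 CPM, within 631 to 2836 CPM elsewhere. The 2 leukocyte genes that could be named summed to 7.23 CPM, within 1.11 to 16.9 CPM of the other sub-clusters. None of the listed markers of endothelium, muscle, neural crest or Merkel cells could be named among the HH31 genes, so these cell types could not be assessed. Haemoglobin UMIs were spread over all sub-clusters at like levels: the 3 blood markers summed to 1057 CPM in the skin and to 848 to 1376 CPM elsewhere. Their part in any ratio above was not tested.

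UMIs of PRRX1 occurred in 34 skin cells, which had a median of 3400.5 UMIs against 2499 in the remaining 333. In a comparison of these 34 cells with the other skin cells over 3784 genes with at least 20 UMIs in the skin, 104 genes were higher (2.75%) and 39 lower (1.03%). HOXA13 (15 against 8 UMIs), HOXD13 (13 against 8 UMIs) and HOXD12 (20 against 18 UMIs) led the higher genes, with ratios of 3.82, 3.61 and 3.06. The skin markers ANXA2, CLDN1, KRT17 and KRT19 differed by less than 2-fold between these cells and the rest of the skin, with ratios between -0.24 and 0.31, and COL17A1 had a ratio of -0.59 (-1.01 to -0.19). Leaving these 34 cells out of the skin changed the median ratio of the Hox list to -4.89 and the numbers of genes to 296 higher and 919 lower.

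The 11 skin cells with FGF8 were compared with the rest of the skin, a split chosen after values had been seen. They held 31402 UMIs in all, with a median of 2010 UMIs against 2571 in the other 356 skin cells. Of 3784 genes, 84 were higher (2.22%) and 38 lower (1%) in the FGF8 cells, shares no larger than those of the PRRX1 split. A few deep cells weigh most in these sums, the deepest with 5532 and 5130 UMIs. PHLDA2, an imprinted growth regulator in mammals, had 32 UMIs in 9 of the 11 cells and 48 UMIs in 41 of the other 356 cells (ratio 4.51, 3.82 to 5.19). COL5A2 (21 against 37 UMIs), the LIM protein gene CSRP2 (44 against 145 UMIs) and the Wnt inhibitor gene APCDD1 (11 against 34 UMIs) were also higher. So were BMP4 (8 against 17 UMIs) and MSX2 (7 against 64 UMIs), both expressed in the chick ridge, and CTNNB1, found in all 11 cells (ratio 2.15, 1.69 to 2.59). BMP4 (1.82), CSRP2 (1.59) and MSX2 (1.01) were also called higher in the skin cells with PRRX1. However, 2 of the 11 FGF8 cells, the deepest among them, also held PRRX1. The splits therefore share cells, and these genes were not tested without them.

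The FGF8 cells had less of several abundant skin transcripts. NREP, a neuronal regeneration-related gene that averaged 1377 CPM in the skin as a whole, had 3 UMIs in the FGF8 cells against 1520 in the others (-3.89, -6.17 to -2.34). CXCL14 had 2 against 740 UMIs, ATIC 5 against 1030 UMIs and FN1 7 against 844 UMIs. KRT19 (-1.98) and COL17A1 (-1.31) were lower too, whereas ANXA2 (0.14, -0.44 to 0.68) and CLDN1 (0.74, -0.03 to 1.42) were not. KRT17 (0.89, 0.18 to 1.52) and WNT6 (0.84, 0.06 to 1.52) leaned to the FGF8 cells without reaching 2-fold. No FGF8 cell held a UMI of EN1. SP8 was found in 3 of the 11 and RSPO3 in 2, and WNT6 was found in 9.

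**Figure D3:**
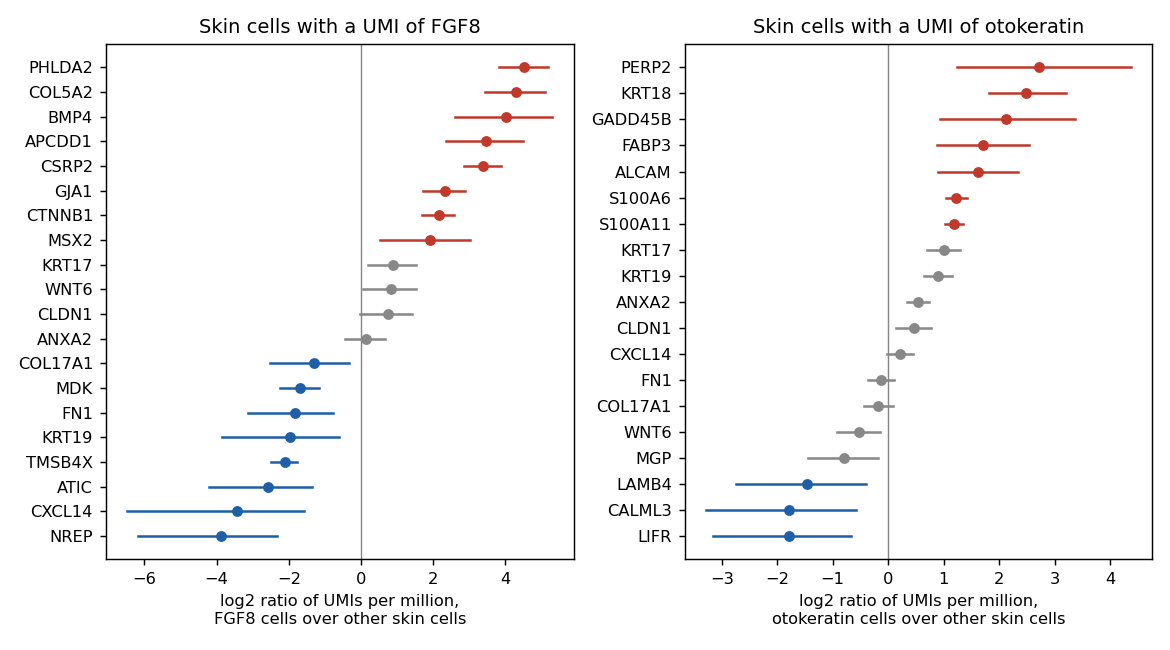
Log2 ratio of UMIs per 1000000 (points, with 95% counting intervals as lines) for skin cells with a UMI of FGF8 over the other skin cells (left) and for skin cells with a UMI of otokeratin over the other skin cells (right). Red genes are at least 2-fold higher, blue genes at least 2-fold lower and grey genes neither. PHLDA2 and NREP mark the ends of the left panel, at 4.51 and -3.89.

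The skin cells were also split by detection of otokeratin. Otokeratin was detected in 81 skin cells, which were deeper than the other 286 (medians of 3022 and 2409 UMIs). In these cells 52 genes were higher (1.37%) and 73 lower (1.93%). KRT18 had 56 UMIs in the otokeratin cells and 28 UMIs in all other skin cells (2.49, 1.81 to 3.20). PERP2 (14 against 6 UMIs), the adhesion molecule ALCAM (36 against 33 UMIs), GADD45B (17 against 11 UMIs), S100A6 (1.23, 1.04 to 1.41) and S100A11 (1.19, 1.02 to 1.35) were higher with it. The skin markers KRT17 (0.998, 0.71 to 1.29), KRT19 (0.90, 0.64 to 1.15), ANXA2 (0.54, 0.34 to 0.73) and CLDN1 (0.46, 0.14 to 0.77) leaned the same way without reaching 2-fold. The laminin gene LAMB4 was lower (-1.46, -2.74 to -0.40), as was CALML3 (-1.78, -3.29 to -0.58), while COL17A1 had a ratio of -0.18 (-0.44 to 0.08). Across the 367 cells, the log levels of otokeratin and KRT18 correlated with r = 0.337, and those of otokeratin and MGP with r = -0.123, as a description over cells that share a library and differ in depth.

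EN1 was detected in 69 skin cells, which had a median of 2991 UMIs against 2471 in the other 298. Higher with it were 57 genes (1.51%) and lower 49 (1.29%). Picked out after values had been seen, the higher genes included the dividing-cell genes MKI67 (25 against 34 UMIs; 1.26, 0.45 to 2.05), CENPF (67 against 93 UMIs) and CENPE (17 against 18 UMIs). MSX1 was lower (-1.10, -1.78 to -0.47), as were otokeratin (-0.90) and S100A6 (-0.74) by less than 2-fold. WNT6 (-0.17) and SP8 (-0.13) had intervals across 0. The depth of the cells moved with these splits, and its part in them was not tested.

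Ranked by variance over mean at 1000 UMIs per cell, the most uneven of 926 genes were haemoglobin (HBE at 9.22, HBAA at 4.04 and HBAD at 3.01), the histone gene HIST1H103 (3.33) and Wpkci-8 (2.99). They were followed by the actin-binding TMSB4X, MT1 MT3, S100A6, MT4L, the mitotic genes CENPF and UBE2C, RPL37, TUBA1A and the mitochondrial MT-CO1 and COX3. HBE was detected in 28.3% of skin cells and 23.1% of the other cells, and a single skin cell carried 5.20% of its UMIs as haemoglobin, against a median of 0.0779%. With all UMIs scaled by the cell total instead of thinning, 13 of these 15 genes were again in the top 15.

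Wpkci-8 is carried on the W chromosome, which only female birds have. It was absent from 221 skin cells, present with 1 or 2 UMIs in 29 and with at least 3 UMIs in 117 (31.9%), with a median of 7 in the last set. Among the other cells 30.6% had at least 3 UMIs. Cells with and without it therefore occurred in like proportions in the skin and elsewhere. RPS23 and RPS6, which lie on the Z chromosome of which males have a pair, were lower in skin cells with at least 3 UMIs of Wpkci-8 than in those without (-0.76, -0.83 to -0.69, and -0.82, -0.90 to -0.74).

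The skin was also compared with other cells separately within each set. The 304 genes had been chosen on all skin cells, which include both sets, so their direction within a set is a description and was largely fixed by that choice. Of the 304 higher genes, 138 had enough UMIs among cells with at least 3 UMIs of Wpkci-8, and all 138 had a ratio above 0, with 114 called (82.6%, where 2.96% of all genes tested in that set were called higher). Among cells without Wpkci-8, 225 could be compared, all 225 were above 0 and 201 were called (89.3%, against 3.98%). WNT6 had ratios of 8.03 and 8.23 in the cells with and without Wpkci-8, FN1 4.50 and 4.31, and CXCL14 2.57 and 2.78. MGP differed more, at 4.98 (4.04 to 6.02) with Wpkci-8 and 7.31 (6.29 to 8.56) without, and so did COL3A1 at 2.28 (1.63 to 2.90) and 3.38 (3.02 to 3.74). These sets were formed after the data had been seen, and the number of embryos in each is not known.

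**Figure D4:**
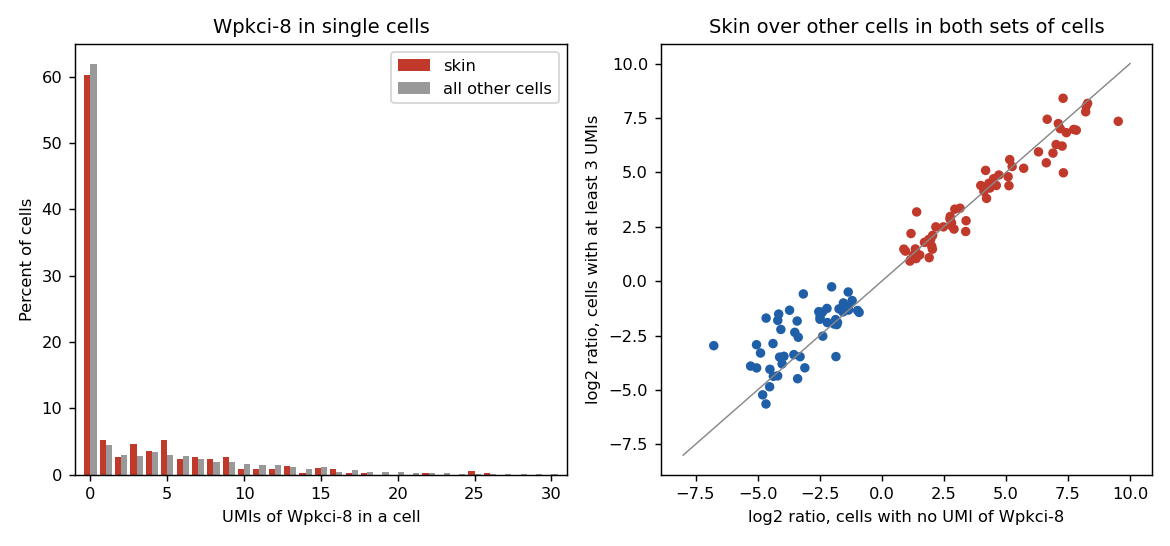
Left, percent of skin cells (red) and of all other HH31 cells (grey) by their number of Wpkci-8 UMIs, shown up to 30 UMIs. Right, log2 ratio of skin over other cells among cells with at least 3 UMIs of Wpkci-8 (vertical axis) and among cells with none (horizontal axis), for named genes that were higher (red) or lower (blue) in the skin as a whole, with the line of equality. Genes such as WNT6 (8.03 and 8.23) and FN1 (4.50 and 4.31) lie near the line, and MGP (4.98 and 7.31) lies below it.

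The genes of the HH31 skin were then followed in the ectoderm of the earlier libraries, each against the other cells of its own stage. The stages differed in dissection and the HH29 library also in platform, and these cannot be told apart from stage. The HH25 ectoderm was the 242 cells of sub-clusters 7 and 8, and the HH29 skin the 184 cells of sub-cluster 1. Of the 304 genes, 251 had enough UMIs at HH25 and 152 of them were higher there as well (60.6%), where 5.54% of all HH25 genes were higher, and 3 were lower. At HH29, 193 of 288 were higher (67.0%, against 6.15% of all HH29 genes) and none was lower. At both earlier stages 123 of 242 were higher, a count without a background, since the share of all genes higher at both was not calculated. Of the 931 lower genes, 297 of 833 were also lower at HH25 (35.7%, against 8.01%) and 13 were higher. At HH29 396 of 904 were also lower (43.8%, against 7.4%) and 1 was higher.

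Some genes had large ratios at each stage. WNT6 had ratios of 8.22 at HH25, 8.14 at HH29 and 7.97 at HH31, COL17A1 of 7.17, 7.83 and 7.47, and SP8 of 8.78, 7.72 and 10.30. CALML3 and LAMB4 had at most 22 UMIs in the other cells of any stage, but at HH25 they fell under the minimum of 50 UMIs, with 30 and 27 UMIs in the ectoderm, as did SP8 at HH29. In the ectoderm of the successive stages KRT17 stood at 78.1, 276 and 370 CPM and COL17A1 at 130.2, 469.6 and 623 CPM. FGF8 was found at 199 CPM in the HH25 ectoderm and 33.4 CPM in the HH31 skin, with the whole rim of the autopod dissected at HH25. EN1, FGF8 and S100A14 had no value here at HH29, nor had TP63, MGP and S100A14 at HH25.

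Other genes marked the ectoderm less sharply at HH31. CXCL14 had a ratio of 7.01 (6.80 to 7.24) at HH25, 5.06 at HH29 and 2.67 (2.54 to 2.80) at HH31. In the other cells of HH31 it reached 302 CPM in sub-cluster 8. SEMA3D, a secreted guidance factor, had ratios of 6.92, 1.74 and 1.10 (0.91 at HH31 with the other sub-clusters weighted equally), and COL14A1 of 7.74, 4.83 and 3.18. FGFR2 went the same way with 4.49, 2.41 and 1.83. HOXC10 had ratios of -0.19 (-0.75 to 0.32) at HH25, -0.04 (-0.36 to 0.27) at HH29 and 1.72 at HH31, whereas HOXC9 was higher at each stage (3.08, 5.34 and 4.55). S100A6 had 47.2 CPM in the HH25 ectoderm, 266 CPM in the HH29 skin and 879 CPM in the HH31 skin, with ratios of 0.13, 0.43 and 1.48. The unequal ribosomal share of the libraries limits the comparison of these CPM values too.

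**Figure D5:**
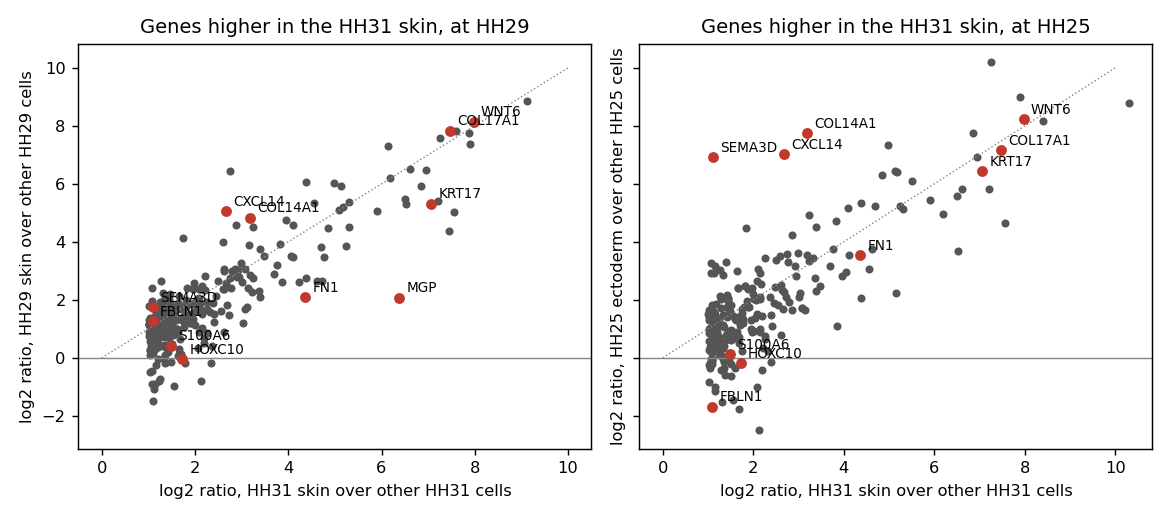
Genes at least 2-fold higher in the HH31 skin, by their log2 ratio there (horizontal axes) and in the HH29 skin (left) or HH25 ectoderm (right) over the other cells of that stage (vertical axes). The dotted line marks equal ratios and red points are named genes. CXCL14, COL14A1 and SEMA3D lie above the line at HH25, at 7.01, 7.74 and 6.92, and HOXC10 lies near 0 at both earlier stages.

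A few genes changed sides. BMP4 was lower in the skin at HH31 (-1.70, -2.34 to -1.13) and at HH29 (-1.95) but higher in the ectoderm at HH25 (2.53, 2.10 to 2.94), and MSX2 had ratios of 1.63 at HH25, -1.49 at HH29 and -1.82 at HH31. Without the cells that had a UMI of FGF8, the HH25 ratios were 1.47 (0.84 to 2.05) for BMP4 and 0.70 (0.20 to 1.17) for MSX2. That alternative was added after the data had been seen. FBLN1 went the opposite way, as it was lower in the HH25 ectoderm (-1.69, -2.24 to -1.18) and higher in the HH29 skin (1.27, 1.11 to 1.43) and HH31 skin (1.09, 0.90 to 1.29). Whether these ratios differ between stages was not tested, with 1 library for each.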

How the data were processed

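The authors made the count tables with Cell Ranger version 2 (HH25, HH31) or the DropSeq pipeline (HH29) on the Ensembl chicken assembly Gallus_gallus-5.0, and deposited raw UMI counts per cell and gene together with S and G2M cell cycle scores (fractions between 0 and 1, made by the authors with scran) and broad and fine cluster numbers. Their methods state filters on UMI number and on mitochondrial and ribosomal share. Not all deposited cells meet these filters as stated. The UMI and mitochondrial limits, applied again, removed 240 HH31 cells, 20 of them skin cells. Ribosomal protein genes gave 28.0 to 59.6% of a skin cell's UMIs, and the ribosomal limit was not applied again. The skin was fine sub-cluster 5 of the HH31 table. UMIs were summed over its cells and over all other cells, divided by the total and expressed per 1000000. Intervals of ratios and shares are exact binomial (95%), and those of levels exact Poisson. A count of 0 was replaced by 3 UMIs to give a bound. Named genes were the 5 markers, the 25 highest and 15 lowest ratios among named genes with at least 100 UMIs, the 15 with the largest spread among skin cells (at least 100 UMIs) and the members of 17 gene lists. The members, lists and splits were chosen with earlier results of these data known. Gene names were taken from the study's gene lists, which named 3003 of 9127 genes. No doublet caller was run. The calculation was run on simulated Poisson counts, which meet the assumption of the intervals. That run checks the code and says nothing on variation between cells or embryos. Python 3.11.15, numpy 2.4.6, pandas 2.3.3 and scipy 1.17.1 were used. Sequences were not used here, and some genes of the lists are counted but not reported singly here.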

Additional observations from a re-analysis of the deposited data

Results flagged for a closer look

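The skin or ectoderm differed in opposite directions from the other cells of its stage for 13 named genes, lower at HH31 and higher at HH25 in all but FBLN1. With unnamed genes included, 13 of 833 genes lower at HH31 were higher at HH25, where 5.54% of all HH25 genes were higher. Of 251 genes higher at HH31, 3 were lower at HH25, where 8.01% of all genes were lower. No test of the difference between stages could be made, since each stage is 1 library and the stages also differ in dissection. The log2 ratio of FBLN1 was 1.09 at HH31 and -1.69 at HH25. The transcription factor genes TFAP2B (-2.06 at HH31, 1.23 at HH25), MSX2 (-1.82 and 1.63) and MEF2A (-1.38 and 1.42) and the signalling genes BMP4 (-1.70 and 2.53) and FZD9 (-1.52 and 1.16) were lower at HH31 and higher at HH25. So were the matrix and cytoskeletal genes COL12A1 (-1.79 and 1.23), COL5A1 (-1.06 and 1.13), ADAM12 (-1.94 and 2.47) and CSRP2 (-2.31 and 1.66), and C2orf40 (-1.12 and 1.80), MAP1LC3C (-1.02 and 1.57) and PGM1 (-1.44 and 1.51). Without FGF8-bearing cells the HH25 ratios of CSRP2 and FZD9 were 0.47 (-0.14 to 1.03) and 0.30 (-0.85 to 1.26). That of MSX2 was 0.70 (0.20 to 1.17), also below 2-fold. MAP1LC3C and PGM1 rested on 7 and 9 UMIs in the HH25 ectoderm.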

How the results depend on the processing

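No paired analysis was possible because each stage had 1 library. The number of genes lower in the skin was 595 with cells thinned to 1000 UMIs. With a minimum of 200 UMIs 111 genes were higher and 589 lower, and with no minimum 478 were higher. A 1.5-fold threshold gave 468 higher and 1426 lower genes, a 4-fold threshold 126 and 405. Among cells with at least 3 UMIs of Wpkci-8, 153 were higher and 604 lower. The remaining alternatives gave between 256 and 445 higher and between 673 and 1068 lower genes. For 109 named genes, 1413 values under 13 alternatives had the sign of the main value, 115 of them outside its interval, and 4 gave no value. Most of these genes were chosen for a main ratio of at least 2-fold, and the alternatives reuse the same UMIs. A bound on the wrong side of 0 also gave no value, so the shared sign was largely fixed in advance. Of the 109 genes, 13 fell below 2-fold under at least 1 alternative, among them SNAI2, COL5A1, SEMA3D, ERBB3, LMX1B and GCAT. Some of the values below 2-fold were bounds with no UMI left in the skin, as for LMX1B. List medians moved with thinning from 6.04 to 5.43 for keratins and from -1.70 to -0.59 for the ridge list. They changed sign for immediate early and heat shock genes (-0.25 to 0.29) and for mitochondrial genes (-0.041 to 0.030). Among cells with Wpkci-8 they were -0.59 for the ridge list, -0.85 for cell cycle genes and 0.16 for ribosomal proteins. The ridge list holds the ridge, dorsal and ventral ectoderm genes, and both of its values of -0.59 were those of LMX1B. They were bounds, because no UMI of LMX1B was left in the skin. Without PRRX1 cells the Hox list stood at -4.89. With the median ratio set to 0 the metabolic list stood at 1.46, ribosomal proteins at 0.37 and mitochondrial genes at 0.21. With ribosomal and mitochondrial genes out of the totals, the last 2 lists stood at 0.25 and 0.093. Thinning lowered the share of skin cells with a UMI to 28.1% for KRT17, 39.8% for KRT19, 45.5% for COL17A1, 53.4% for ANXA2 and 25.3% for CLDN1. The cause of these shifts was not tested. Genes with under 50 UMIs were left uncounted by choice, and a minimum of 20 UMIs gave 445 higher genes.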
